A study of Mus musculus with 11 samples.

Results

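The kinesins are motor proteins that walk along or take apart microtubules, and 40 of the 55536 genes in the islet count tables carried a symbol made of Kif, a number and an optional suffix. Every such gene was taken as a member by its symbol alone, and all 40 had the same identifier and symbol in the GENCODE M21 annotation of the mouse genome (GRCm38). By role, 11 were motors of the mitotic spindle, 12 carried vesicles and organelles, 7 served cilia or centrioles, and 10 were other genes with such a symbol. The last group included Kif1bp, the gene of a kinesin-binding protein that is not a motor, and Kif16bos, an antisense transcript.

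Pancreatic islets came from wild type C57BL/6J female mice that entered the study at 9 weeks of age. Multipara mice went through 3 pregnancies in a row, with islets taken 3 weeks after they last gave birth, and virgin mice of the same age were the controls. In each parity group some mice were injected with S-961, a peptide that blocks the insulin receptor, and others received no treatment. Poly(A) RNA gave 3 libraries labelled virgin S-961, 4 labelled multipara S-961, 2 labelled virgin untreated and 2 labelled multipara untreated, and the text refers to each library by that label and its replicate number. The labels do not say that each library came from a separate mouse or pool of mice, so that p-values measure the spread between these samples only. The parity of each library is taken from its label and was not checked against the counts of any gene.

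In a dividing cell, kinesins push the spindle poles apart, hold chromosomes at the middle of the spindle and build the bridge that is cut when daughter cells separate. Their genes are switched on in the G2 and M phases and are nearly silent in resting cells, such as most adult β cells. The transport kinesins are used at all times, and in β cells kinesin-1 carries insulin granules and mitochondria outward along microtubules.

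Genes of the G2 and M phases often carry a CCAAT box and, close to the start, a cell cycle homology region (CHR). RefSeq promoter windows (GRCm38.p6, from 250 bases before to 50 bases after a start) were at hand for 32 of the 40 members. These included 10 of the 11 spindle motors and 9 of the 12 cargo motors, with 2 windows each for Kif1a and Kif1b. Both strands were searched for CCAAT, for TTTGAA or TTCGAA as a CHR, and for TTCGCGC or TTGGCGC as a core site of E2F factors, where a reverse CCAAT can share 4 letters with the last one. A CHR was found in 9 of 10 spindle motor windows, in 1 of 11 cargo motor windows and in 19.2% of all 32851 windows. A CCAAT box stood in 6 of 10 spindle windows, in 4 of 11 cargo windows and in 37.4% of all. Both motifs together occurred in 6 of 10 spindle windows, in 0 of 11 cargo windows and in 7.52% of all, and the E2F core in 2, 1 and 3.89%. The counts take a motif anywhere in the window, and the CHR was not always close before the start. It began 228 bases before it in Kif14 and 103 bases before it in Kif2c. In Kif18b, Kif20b, Kif23 and Kif4 the CHR lay after the start, and Kif15 had a CHR 19 bases before it but no CCAAT box. These matches describe letters in a window and not sites in use. The 250 bases before the start are shown for the pair of spindle motors and the pair of cargo motors with the highest counts per length among members with a window, 5′ to 3′ on the strand of the gene, with CCAAT boxes and CHRs of either strand in capitals. Those of the spindle motors lie at chr19:37376132-37376381 (+) for Kif11 and chr7:127042421-127042670 (-) for Kif22. Those of the cargo motors lie at chr1:93101875-93102124 (-) for Kif1a and chr4:149307734-149307983 (-) for Kif1b, each at the outermost of 2 starts.
Kif11: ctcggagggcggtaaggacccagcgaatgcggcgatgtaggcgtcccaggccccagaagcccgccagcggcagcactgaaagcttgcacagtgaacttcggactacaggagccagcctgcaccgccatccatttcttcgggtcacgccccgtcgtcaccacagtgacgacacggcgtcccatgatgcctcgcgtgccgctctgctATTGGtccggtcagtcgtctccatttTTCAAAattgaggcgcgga
Kif22: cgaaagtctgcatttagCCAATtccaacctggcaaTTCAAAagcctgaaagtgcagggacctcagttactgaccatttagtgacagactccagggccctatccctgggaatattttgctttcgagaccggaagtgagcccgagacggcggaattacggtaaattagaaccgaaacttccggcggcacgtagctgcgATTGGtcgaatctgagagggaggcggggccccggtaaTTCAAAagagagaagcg
Kif1a: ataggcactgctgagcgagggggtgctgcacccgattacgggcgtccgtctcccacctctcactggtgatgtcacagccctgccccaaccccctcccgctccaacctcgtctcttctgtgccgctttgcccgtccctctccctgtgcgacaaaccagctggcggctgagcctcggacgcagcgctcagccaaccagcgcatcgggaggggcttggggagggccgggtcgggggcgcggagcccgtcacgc
Kif1b: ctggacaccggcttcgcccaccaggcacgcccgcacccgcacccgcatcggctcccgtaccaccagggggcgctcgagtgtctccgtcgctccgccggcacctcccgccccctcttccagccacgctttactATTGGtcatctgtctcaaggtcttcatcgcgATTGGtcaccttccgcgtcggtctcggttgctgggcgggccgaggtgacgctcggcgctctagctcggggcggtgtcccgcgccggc
In Kif11 the CCAAT box began 45 bases and the CHR 19 bases before the start, and in Kif22 the nearest pair began 54 and 17 bases before it. Kif1b held 2 CCAAT boxes and no CHR in this window, and the Kif1a window shown held neither. The 1 cargo motor window with a CHR was that of the other Kif1a start.

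Estimated counts summed to between 22028507 and 32234146 in a library (median 29866486). Of these, 13.2% to 20.7% fell on Ins1 and Ins2 in the S-961 libraries, and 35.3% to 41.4% in the untreated ones. Expression is given as CPM, that is counts relative to library size after TMM normalization of all 11 libraries together, and levels of different genes are compared as CPM per kb of exon. Acinar markers differed with the treatment: the summed CPM of 12 exocrine genes was 1730 to 12250 with S-961 and 76.4 to 158 without. In bulk RNA, a change in the number of cells of a type and a change in RNA per cell cannot be told apart.

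Kif2b, a microtubule depolymerase, and Kif28 had no count in any library. Kif6, with 0 to 0.194 CPM, and Kif16bos, with 0 to 0.121 CPM, stayed below the count filter. The other 36 members were tested. The highest level per length was that of Kif12, with a mean of 59.9 CPM per kb over the 11 libraries. The cargo motors Kif5b, a heavy chain of kinesin-1, and Kif1a, which moves dense-core vesicles, followed with 25.7 and 21.6 CPM per kb. The highest spindle motor was Kif20a with a mean of 1.19 CPM per kb. All 11 spindle motors had a lower mean per length than each of the 12 cargo motors, of which Kif5a was the lowest with 1.53 CPM per kb. The values of Kif20a, Kif3c and Kif2a were not whole numbers in any of the 11 libraries, because part of their reads was divided with other genes, and this was so for Kif4 in 10 of them. Their levels are therefore less certain.

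The share of kinesin reads that came from spindle motors differed widely between libraries with the same label. Scaled for exon length, the 11 spindle motors took 8.42%, 8.60%, 4.19% and 0.658% of the reads of all 40 members in multipara S-961 replicates 1 to 4. In virgin S-961 replicates 1 to 3 the share was 0.608%, 0.989% and 0.735%. It was 0.999% and 0.857% in the virgin untreated libraries, and 4.05% and 0.742% in the multipara untreated libraries. Multipara S-961 1, 2 and 3 and multipara untreated 1 thus stood above the other 7 libraries, while multipara S-961 4 and multipara untreated 2 lay within or beside the range of the virgin libraries. The share of cargo motors ran from 43.5% to 55.5% over the 11 libraries.

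**Figure D1:**
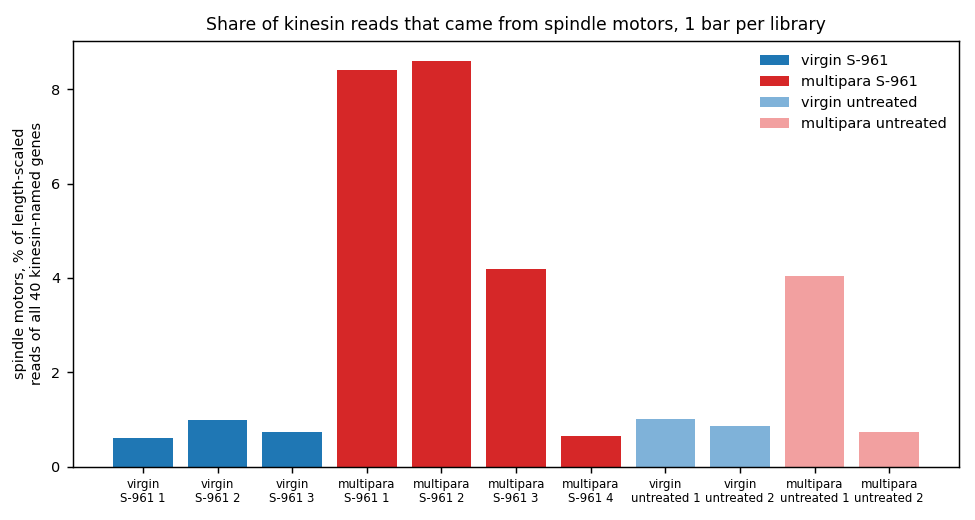
Bars give, for each library, the percent of length-scaled reads of all 40 kinesin-named genes that came from the 11 spindle motors. Multipara S-961 1 to 3 and multipara untreated 1 reach 4.05% to 8.60%, and no other library exceeds 0.999%.

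The comparison of multipara with virgin islets under S-961 addresses how islets that have been through several pregnancies respond to a high demand for insulin. Spindle motors were higher in 3 of the 4 libraries labelled multipara, and cargo motors lay on both sides of 0. The median log2 fold change, multipara over virgin, was 3.15 for the 11 spindle motors (range 1.38 to 4.33) and -0.04 for the 12 cargo motors (range -0.30 to 0.60), and the median of all 16784 genes tested was 0.00. None of these genes passed an adjusted p-value of 0.05 in edgeR's quasi-likelihood test (0% of genes, 0 of 36 members). At an unadjusted p-value under 0.05, 13 of the 36 members were higher in multipara, where 8.03% of all genes were, and these were the 11 spindle motors, Kif24 and Kif5a. One member, Kif17, was lower at that level, where 1.68% of all genes were. With DESeq2, 6 of the 11 spindle motors and 0 of the 12 cargo motors passed as higher, where 1.82% of all genes did. The spread among the 4 multipara libraries came with multipara S-961 4. Without it, all 11 spindle motors and no other member passed in edgeR as higher, where 2.69% of all genes did. Their median log2 fold change was then 3.53 (adjusted p from 0.00305 for Kif11 to 0.0451 for Kif18b). The library left out was the one already seen to be low in these genes. That fit therefore describes the other 3 multipara libraries and is not a test of the group.

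**Figure D2:**
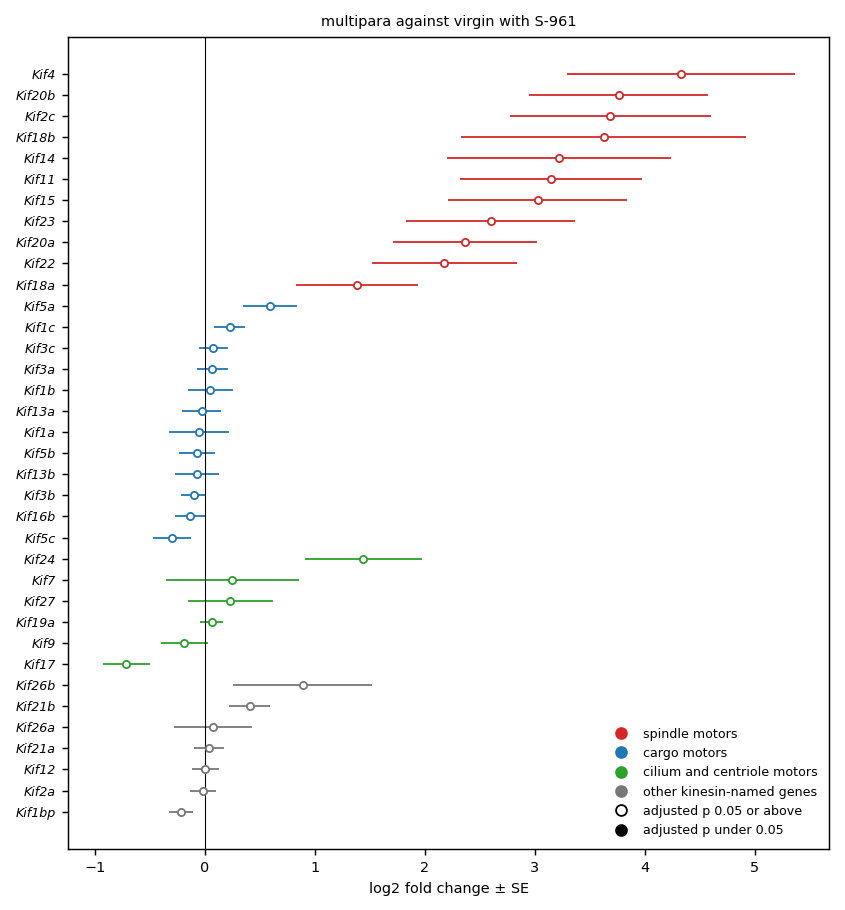
Points show the edgeR log2 fold change of multipara over virgin with S-961 for the 36 members tested, bars the standard error, colours the role. All points are open because no adjusted p-value was under 0.05, and the 11 spindle motors lie between 1.38 and 4.33 while the 12 cargo motors lie between -0.30 and 0.60.

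Kif11 and Kif15 slide the antiparallel microtubules that separate the spindle poles. Kif11 (chr19:37376403-37421859) had 1.39, 2.54 and 1.49 CPM in virgin S-961 1 to 3 and 26.2, 22.4, 13.4 and 1.27 CPM in multipara S-961 1 to 4. Its level was 1.38 and 1.05 CPM in the virgin untreated and 8.62 and 1.20 CPM in the multipara untreated libraries. The first 3 multipara S-961 libraries were above every virgin library, and the fourth was below all 3 virgin S-961 libraries, so that the groups overlapped. Its log2 fold change with S-961 was 3.15 ± 0.83 (SE, adjusted p = 0.315, 4 against 3 libraries) with all libraries. It was 3.53 (adjusted p = 0.00305) without multipara S-961 4, the library already seen to be low, and is a description of the others. Kif15 was high in the same 3 libraries, with 6.89, 6.46, 4.30 and 0.562 CPM in multipara S-961 and 0.371, 1.03 and 0.291 CPM in virgin S-961.

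Kif22 and Kif4 are chromokinesins, which bind chromosome arms and push them toward the middle of the spindle. Kif4 had the largest fold of all members, with 11.8, 11.4, 5.02 and 0.562 CPM in multipara S-961 1 to 4 against 0.155, 0.754 and 0.162 CPM in virgin S-961 1 to 3. The fitted log2 fold change of Kif4 was 4.33 ± 1.04 (adjusted p = 0.315). Kif22 had 1.67, 1.96 and 2.10 CPM in virgin S-961 and 11.8, 15.1, 5.87 and 1.45 CPM in multipara S-961. Multipara S-961 4 was the lowest of the 7 S-961 libraries for Kif22, and the log2 fold change was 2.18 ± 0.66 (adjusted p = 0.339).

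Kif18a, Kif18b and Kif2c shorten or cap microtubules of the spindle. Kif18a differed least among the spindle motors, with 0.804, 1.30 and 0.841 CPM in virgin S-961 and 3.80, 3.55, 2.14 and 0.650 CPM in multipara S-961, and its log2 fold change was 1.38 ± 0.56 (adjusted p = 0.47). Kif2c had 0.124, 0.362 and 0.129 CPM in virgin S-961 and 4.64, 4.07, 1.65 and 0.296 CPM in multipara S-961, and its log2 fold change was 3.69 ± 0.92 (adjusted p = 0.315). It was the 1 spindle motor for which a library outside the multipara S-961 group, multipara untreated 1 with 1.97 CPM, was among the 3 highest. Kif18b had no count in virgin S-961 1, 0.604 and 0.162 CPM in the other virgin S-961 libraries, and 5.61, 4.10, 2.88 and 0.0591 CPM in multipara S-961 1 to 4. Counts of 5 or fewer in 3 of these 7 libraries make its fold change of 3.63 ± 1.29 on the log2 scale the least precise of the group (adjusted p = 0.399).

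Kif20a, Kif23, Kif14 and Kif20b act at the central spindle and the midbody during cytokinesis, where Kif20a brings the chromosomal passenger complex and Kif23 forms the core of centralspindlin. Kif20a, on chromosome 18, had 2.35, 2.08 and 1.39 CPM in virgin S-961 and 14.3, 16.2, 7.28 and 1.74 CPM in multipara S-961. Kif23 had 0.773, 1.93 and 0.874 CPM in virgin S-961 and 11.7, 9.28, 6.80 and 0.828 CPM in multipara S-961. For both, multipara S-961 4 lay inside the range of the virgin S-961 libraries and the other 3 lay above it. Their log2 fold changes were 2.37 ± 0.65 (adjusted p = 0.315) and 2.60 ± 0.77 (adjusted p = 0.329). Kif20b was the 1 spindle motor with no overlap, at 13.7, 10.2, 6.00 and 1.03 CPM in multipara S-961 against 0.278, 0.694 and 0.744 CPM in virgin S-961. Among the 36 members, only Kif20b and Kif21b were above in every multipara library, where 5.23% of all genes were, and only Kif17 and Kif1bp were below in every one, where 3.64% were. The log2 fold change was 3.76 ± 0.81 for Kif20b (adjusted p = 0.315) and 3.22 ± 1.02 for Kif14 (adjusted p = 0.362), which ran from 0.0887 to 4.31 CPM in multipara S-961 and from 0.0927 to 0.423 CPM in virgin S-961.

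Over the spindle motors as a set, the 3 highest of the 11 libraries were multipara S-961 1, 2 and 3 for 10 of 11, and the fourth was multipara untreated 1 for 9 of 11. Multipara S-961 4 lay inside the virgin S-961 range for 6 of 11. Acinar markers were also highest in multipara S-961 1, 2 and 3. In multipara untreated 1 and 2 they summed to 158 and 154 CPM and did not differ as the spindle motors did. All 12 acinar genes had a positive log2 fold change in multipara over virgin with S-961, with 5136, 6839 and 1730 summed CPM in virgin S-961 and 12250, 10800, 8390 and 4446 in multipara S-961, where the fourth library was again the lowest. The acinar transcription factor Ptf1a had 0.118 to 1.65 CPM with S-961 and 0 to 0.189 CPM in the untreated libraries, so that the ranges overlapped. Stromal markers summed to 76.9 to 82.7 CPM in virgin S-961 and 141 to 308 CPM in multipara S-961, with all 8 at a positive log2 fold change. All 7 duct markers (median 1.08) and 7 of 8 neural and Schwann cell markers (median 1.29) also had a positive log2 fold change. So did all 6 alpha cell markers (median 0.50) and all 4 delta cell markers (median 0.38). Of the 10 β cell markers, 8 had a negative log2 fold change (median -0.07). Endothelial and macrophage markers each had 4 positive and 4 negative, and lymphocyte markers had 4 positive and 3 negative. The mean log2 CPM of the duct markers was 3.92, 3.90, 3.62 and 3.12 in multipara S-961 1 to 4 and 2.64, 3.03 and 3.05 in virgin S-961, with the fourth multipara library again the lowest of its group. Their summed CPM, 370 to 619 against 415 to 425, overlapped. Neural and Schwann cell markers had a mean log2 CPM of 2.02, 2.12, 2.48 and 1.44 in multipara S-961 and 0.958 to 1.03 in virgin S-961. The summed CPM of these markers, 54.59 to 75.65 against 47.23 to 55.64, overlapped. With the acinar score as a covariate, the spindle median was 1.37 with no member past the test. The part of these cell types in the spindle motor values was not tested beyond that fit.

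**Figure D3:**
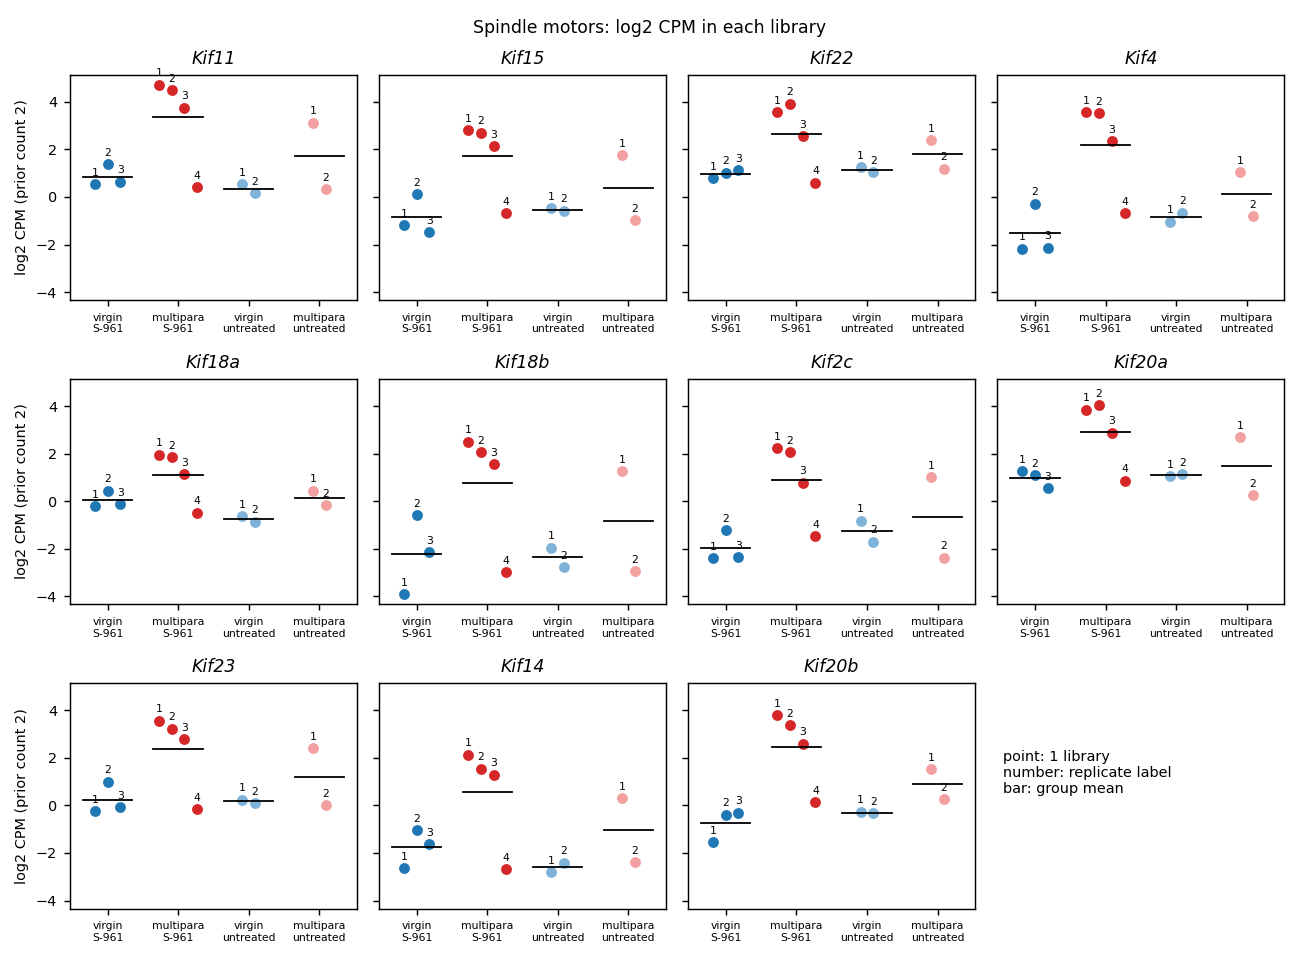
Each panel shows 1 spindle motor as log2 CPM (prior count 2) in each library by group, with replicate numbers beside the points and a bar at the group mean. Multipara S-961 1 to 3 and multipara untreated 1 lie above their group's other library in every panel, and multipara S-961 4 lies near the virgin libraries.

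Of the 6 cargo motors with the highest mean CPM, none had an unadjusted p-value under 0.05. Kif5b had 309, 269 and 236 CPM in virgin S-961 and 303, 253, 200 and 269 CPM in multipara S-961, a log2 fold change of -0.07 ± 0.16 (adjusted p = 0.916). Kif1a had 262, 254 and 153 CPM in virgin S-961 and 197, 129, 269 and 251 CPM in multipara S-961, and its log2 fold change was -0.05 ± 0.27 (adjusted p = 0.965). For both genes the ranges overlapped, and the libraries rich in spindle motors were neither the highest nor the lowest as a group. Kif5c, a kinesin-1 heavy chain of neurons and endocrine cells, had 82.4, 86.5 and 67.7 CPM in virgin S-961 and 66.8, 51.7, 52.8 and 83.1 CPM in multipara S-961. Multipara S-961 1, 2 and 3 were thus the lowest of the 7 S-961 libraries for Kif5c and multipara S-961 4 lay inside the virgin range, while multipara untreated 1, at 36.0 CPM, was the lowest of all 11. The log2 fold change was -0.30 ± 0.18 for Kif5c (adjusted p = 0.628). Kif1b, which carries mitochondria and synaptic vesicle precursors, differed by 0.05 ± 0.20 and Kif13b by -0.07 ± 0.20 on the log2 scale (adjusted p = 0.956 and 0.93). Kif1c, a motor of secretory vesicles and Golgi membranes, differed by 0.23 ± 0.14 (adjusted p = 0.643). The standard errors of these 6 genes, 0.14 to 0.27, were smaller than those of every spindle motor, 0.56 to 1.29. Kif5a, the least abundant kinesin-1 heavy chain, had 11.4, 10.3 and 5.63 CPM in virgin S-961 and 14.6, 13.3, 15.6 and 10.9 CPM in multipara S-961, and its log2 fold change of 0.60 ± 0.25 missed the adjusted threshold (adjusted p = 0.482).

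A pair of cilium and centriole motors differed at the unadjusted level in opposite directions. Kif24, which sits at the mother centriole and restrains the growth of cilia, had 1.02, 1.30 and 0.421 CPM in virgin S-961 and 3.34, 2.53, 3.04 and 0.857 CPM in multipara S-961. Multipara S-961 1, 2 and 3 were the highest of the 11 libraries for Kif24, as for most spindle motors, and multipara S-961 4 lay inside the virgin range. Virgin S-961 2 was the fourth highest, and the log2 fold change was 1.44 ± 0.53 (adjusted p = 0.423). Kif17, a motor of cilia and dendrites, had 4.73, 5.85 and 5.11 CPM in virgin S-961 and 2.55, 3.14, 3.19 and 3.75 CPM in multipara S-961. All 4 multipara libraries were below all 3 virgin libraries for Kif17, multipara S-961 4 among them, and the log2 fold change was -0.71 ± 0.21 (adjusted p = 0.334). The 4 other tested members of this list, Kif7, Kif9, Kif19a and Kif27, had no unadjusted p-value under 0.05.

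Genes that act with the spindle motors were taken from a list of 17, among them cyclin B1, its kinase Cdk1, the Aurora kinases and the chromosomal passengers. All 17 had a positive log2 fold change in multipara over virgin with S-961, with a median of 3.49 and a range of 1.23 to 4.17. All 17 had an unadjusted p-value under 0.05, where 8.03% of all genes were higher at that level, and none passed the adjusted threshold. They summed to 469, 443, 225 and 34.1 CPM in multipara S-961 1 to 4 and to 32.8 to 57.6 CPM in virgin S-961. Multipara S-961 4 thus lay inside the virgin range for the list. Aurkb, the kinase that Kif20a carries to the midzone, had 0.186, 0.483 and 0.227 CPM in virgin S-961 and 8.87, 7.54, 4.17 and 0.325 CPM in multipara S-961. The log2 fold changes were 4.13 for Aurkb, 4.17 for Hmmr, a spindle assembly factor, and 3.49 for Nusap1, which bundles spindle microtubules (adjusted p = 0.315 for each). Of a list of 5 motors outside the Kif symbols, 4 were higher at an unadjusted p-value under 0.05, beside the same share of all genes. None passed the adjusted threshold, and 1 had a log2 fold change of -0.04. Kifc3 had 46.4, 45.7, 39.4 and 39.0 CPM in multipara S-961 1 to 4 and 34.0, 38.9 and 32.2 CPM in virgin S-961. Every multipara library was thus above the virgin ones for Kifc3, multipara S-961 4 by little. Cenpe, the motor that moves chromosomes along kinetochore fibres, had 0.532 to 13.6 CPM in multipara S-961 and 0.615 to 1.05 CPM in virgin S-961, with a log2 fold change of 3.23. Kifc1 and Kifc5b, which focus spindle poles and share most of their sequence so that their reads cannot be assigned with certainty, differed by 3.70 and 2.41.

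In the untreated islets, 33 members could be tested between 2 libraries labelled multipara and 2 labelled virgin, with Kif14, Kif18b and Kif7 also left out by the filter. None of 15812 genes passed an adjusted p-value of 0.05 in edgeR (0%), and DESeq2 called 21 genes higher and 33 lower with no member among them. At an unadjusted p-value under 0.05, 0 members were higher, where 2.52% of all genes were, and 1 of 33 was lower, where 3.1% were. That member was Kif5c, which had 53.3 and 54.5 CPM in virgin libraries and 36.0 and 45.5 CPM in multipara libraries, a log2 fold change of -0.40 ± 0.12 (adjusted p = 0.719). All 9 spindle motors tested had a positive log2 fold change, with a median of 1.43. The 12 cargo motors had a median of -0.15 and all 12 were negative, and the median of all genes was 0.02. Both multipara libraries were below both virgin libraries for 12 of 33 members, 7 of them cargo motors, where 18.8% of all genes were. Both were above for 2 of 33, Kif18a and Kif20b, where 17.3% of all genes were.

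The spindle values of untreated islets rested on multipara untreated 1. Kif11 had 8.62 CPM there and 1.20 CPM in multipara untreated 2, against 1.38 and 1.05 CPM in virgin untreated. Kif20a stood at 6.34 CPM in the first and 1.14 CPM in the second multipara library while the virgin pair gave 1.99 and 2.14 CPM, so that the second multipara library was the lowest of the 4. Without multipara untreated 1 the spindle median was -0.04, and without multipara untreated 2 it was 2.31 with 10 spindle motors and Kif21b past the test as higher, where 8.81% of all genes were. The last fit compares the 1 multipara library already seen to be high with 2 virgin libraries, takes its spread from the virgin pair alone and is a description of that library. Kif21b, a motor of neurons and lymphocytes, had 21.4 CPM in multipara untreated 1, 2.02 CPM in multipara untreated 2, 3.18 and 3.27 CPM in virgin untreated and 4.50 to 7.72 CPM in the 7 S-961 libraries. The same library had 281 summed CPM of 8 lymphocyte markers, against 28.3 to 41.9 in the other untreated libraries, and 955 summed CPM of 8 macrophage markers, against 196 to 227. All 8 lymphocyte and all 8 macrophage markers had a positive log2 fold change in this comparison, and the T cell gene Cd3e went from no count in multipara untreated 2 to 7.19 CPM in multipara untreated 1. In multipara S-961 1, 2 and 3, where spindle motors were highest, the lymphocyte markers summed to 9.52, 6.17 and 34.1 CPM. The part of these immune cells in the kinesin values was not tested.

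The interaction of parity with S-961, fitted on all 11 libraries, asks whether the difference between multipara and virgin changed with treatment. None of 17996 genes passed in edgeR (0%), while DESeq2 called 66 genes higher and 22 lower with no member among them. At an unadjusted p-value under 0.05, Kif5a was the 1 member higher, where 4.27% of all genes were, and Kif17 the 1 member lower, where 2.28% were. Their log2 interaction terms were 0.92 ± 0.40 and -0.79 ± 0.34 (adjusted p = 0.758 for both). The spindle median was 1.38 and the cargo median 0.10, against -0.04 for all genes. Kif20b and Kif4 had terms of 2.33 ± 1.18 and 2.93 ± 1.54, while Kif11 had 1.10 ± 1.38, Kif20a 1.47 ± 1.13 and Kif5b 0.06 ± 0.27 (adjusted p from 0.768 to 0.989). The spindle median became 3.15 without multipara untreated 1. Kif21b had a term of -1.48 ± 0.87, which was -2.34 (adjusted p = 0.0264) without multipara untreated 2 and 1.07 without multipara untreated 1. Either fit leaves 1 multipara untreated library, assumed to vary like the other groups, and in the first it is the library with 21.4 CPM of Kif21b.

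The comparison of S-961 with no treatment, within each parity group, showed a different set of kinesins. Here some transport motors and no spindle motor passed the edgeR test. The labels name no batch, so that a batch that followed the treatment, like the acinar markers that did, cannot be told apart from it. In virgin islets, 4 of 36 members passed as higher with S-961 (11.1%), where 18.8% of all genes did, and 2 passed as lower (5.56%), where 17.6% did. The members that rose were Kif5b, Kif16b, Kif17 and Kif21a, and Kif1c and Kif3c fell. In multipara islets, 6 of 36 members passed as higher (16.7%), where 18.2% of all genes did, and 1 as lower, where 19.4% did. These were Kif5b, Kif16b, Kif21a, Kif24, Kif5c and Kif5a, and Kif1c was the 1 lower. The members' shares were thus near or below those of all genes, and with 36 members tested they are not a result about the family. Of the 12 cargo motors, 2 passed as higher and 2 as lower in virgin islets. In multipara islets 4 passed as higher and 1 as lower, beside the same shares of all genes. The calls are given gene by gene and are not a result about transport motors as a class.

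**Figure D4:**
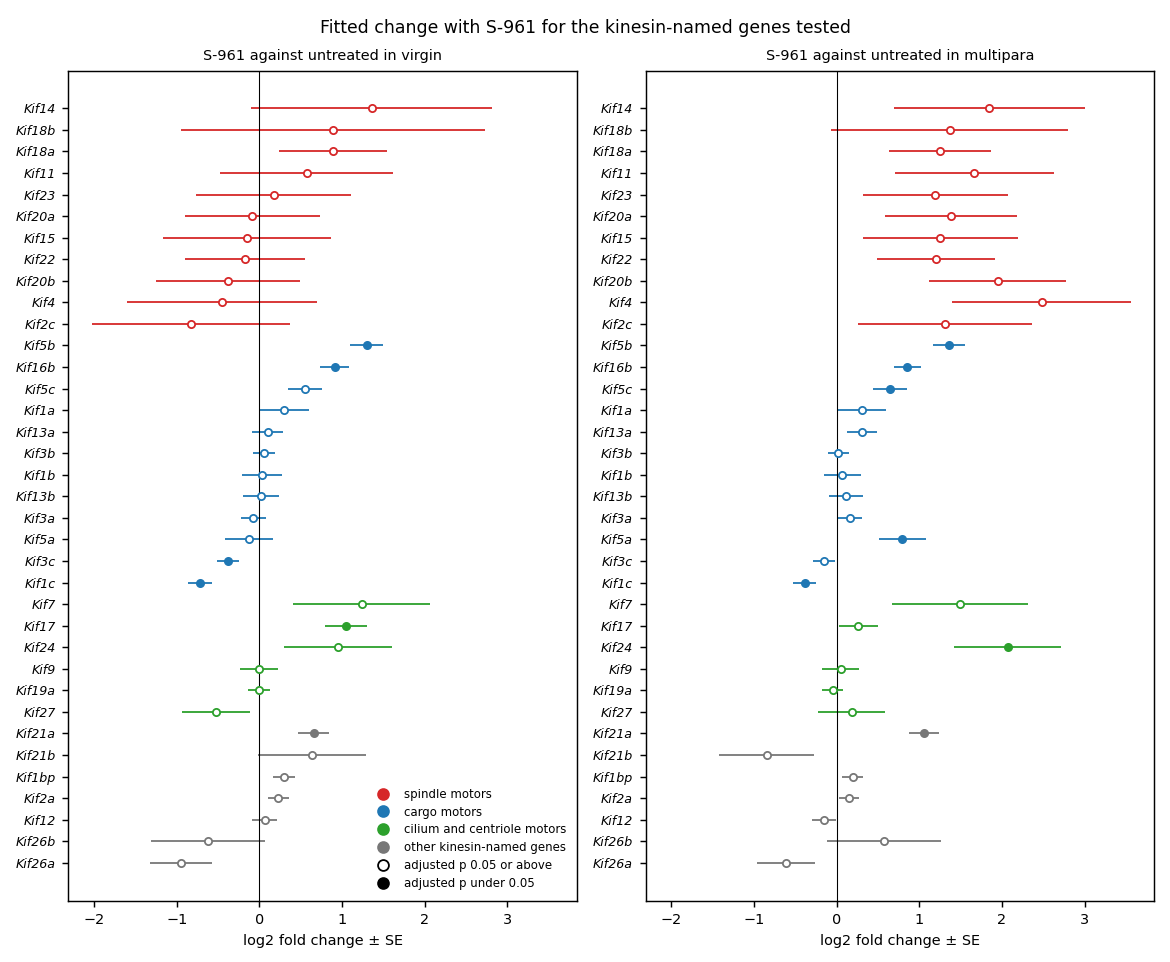
Points show the edgeR log2 fold change of S-961 over untreated for the 36 members in virgin (left) and multipara (right) islets with standard error, in 1 order by role, and filled points have an adjusted p-value under 0.05. Kif5b is the cargo motor farthest to the right in both, at 1.30 and 1.36.

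Kif5b, the kinesin-1 heavy chain of most tissues and a carrier of insulin granules, rose by 1.30 ± 0.20 on the log2 scale in virgin (adjusted p = 0.000938) and by 1.36 ± 0.20 in multipara islets (adjusted p = 0.000594). The untreated libraries had 119, 102, 88.4 and 112 CPM, and the 7 S-961 libraries had 200 to 309 CPM. Every S-961 library was above every untreated one in both parity groups, and the interaction term, 0.06 ± 0.27, was smaller than its error. The make-up of the kinesin-1 heavy chains differed as well. Per length, Kif5b made up 71.3% to 77.6% of the reads of the 3 Kif5 genes in the S-961 libraries and 58.0% to 64.9% in the untreated libraries. Kif5c made up 17.8% to 25.6% and 29.4% to 34.7%, and Kif5a 2.02% to 6.43% and 5.22% to 7.34%.

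The other 2 heavy chains differed between parity groups in their edgeR calls, and the difference itself did not pass the test. The S-961 levels of Kif5c given above were higher than the untreated libraries of the same parity in both cases. Kif5c rose by 0.64 ± 0.20 in multipara islets (adjusted p = 0.029). In virgin islets it differed by 0.55 ± 0.21 (adjusted p = 0.0619), where DESeq2 called it higher. The multipara call was lost without multipara S-961 1 or multipara untreated 1 (adjusted p = 0.0609 and 0.223) and with only the groups compared in the fit (adjusted p = 0.0814). Kif5a had 8.61 and 11.3 CPM in virgin untreated and 6.70 and 9.01 CPM in multipara untreated, and its 4 multipara S-961 libraries were above the latter. The multipara call of Kif5a (0.79 ± 0.29, adjusted p = 0.0492) was lost in 11 of 17 alternatives (adjusted p from 0.0501 to 0.284).

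Kif16b, a motor of early endosomes, had 37.6, 34.7 and 28.1 CPM in virgin S-961 and 28.7, 26.5, 29.0 and 36.6 CPM in multipara S-961. The untreated libraries had 19.2 and 16.5 CPM in virgin and 16.4 and 17.0 CPM in multipara, with no overlap in either parity group. It rose by 0.91 ± 0.17 in virgin (adjusted p = 0.00252) and 0.86 ± 0.17 in multipara islets (adjusted p = 0.00293). Kif21a, which stabilises microtubule ends at the cell cortex, had 69.6 to 90.1 CPM in the 7 S-961 libraries and 51.4, 52.8, 32.0 and 48.2 CPM in the untreated ones. It rose by 0.66 ± 0.19 in virgin (adjusted p = 0.0186) and 1.06 ± 0.18 in multipara islets (adjusted p = 0.00156). The virgin call was lost when any of 4 single libraries, virgin S-961 1 or 2 or virgin untreated 1 or 2, was left out (adjusted p from 0.056 to 0.113).

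Kif1c had 43.7, 46.6 and 38.9 CPM in virgin S-961 and 72.8 and 69.1 CPM in virgin untreated, a log2 fold change of -0.72 ± 0.14 (adjusted p = 0.00337). In multipara islets it had 47.6, 44.1, 60.6 and 46.7 CPM with S-961 and 62.7 and 67.6 CPM without, again with no overlap. The multipara call of Kif1c (-0.39 ± 0.14, adjusted p = 0.0452) was lost in 13 of 17 alternatives (adjusted p from 0.0574 to 0.223), while the virgin call held in all 16. Kif3c, a kinesin-2 subunit, had 19.5 to 22.0 CPM in virgin S-961 and 26.7 and 26.6 CPM in virgin untreated. Its call (-0.38 ± 0.14, adjusted p = 0.0492) was lost in 13 of 16 alternatives (adjusted p from 0.0562 to 0.192). Kif17 rose by 1.05 ± 0.25 in virgin islets (adjusted p = 0.00852), with 2.60 and 2.46 CPM in virgin untreated. Its multipara levels, 2.50 and 2.77 CPM untreated and 2.55 to 3.75 CPM with S-961, overlapped. Without either virgin untreated library the Kif17 call was lost (adjusted p = 0.0601 and 0.0808).

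**Figure D5:**
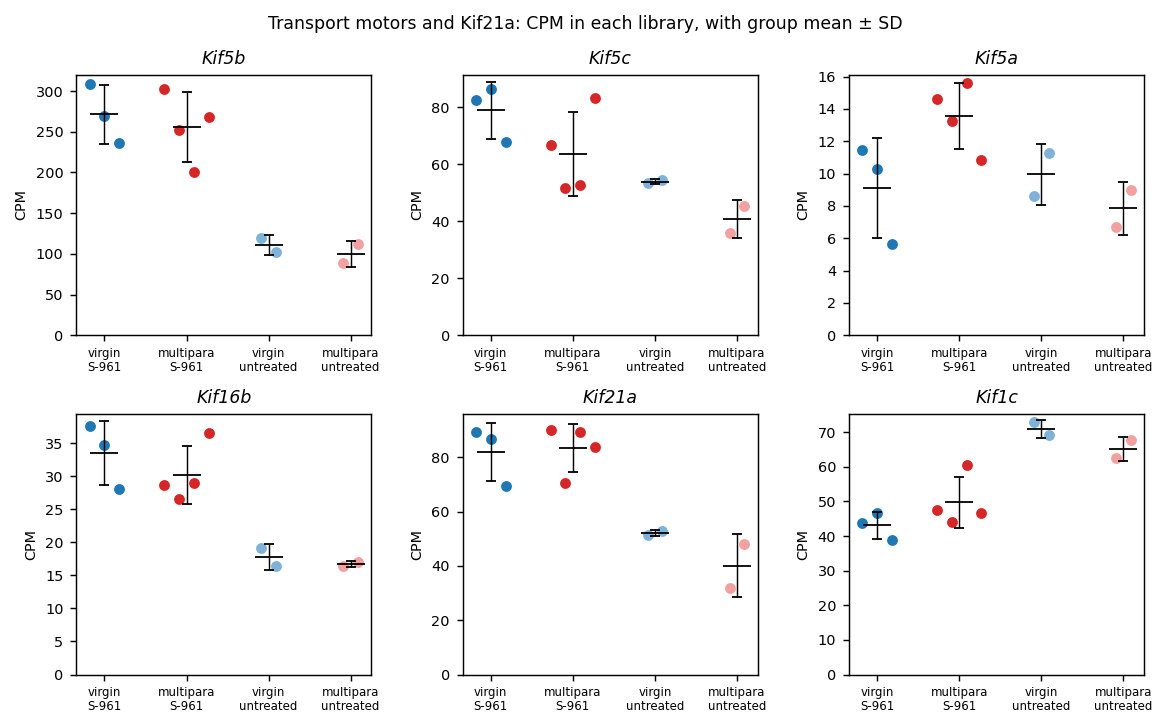
Points show CPM of Kif5b, Kif5c, Kif5a, Kif16b, Kif21a and Kif1c in each library by group, with a bar at the group mean and whiskers of 1 SD, on axes that start at 0. Kif5b, Kif16b and Kif21a lie higher in the S-961 libraries of both parity groups and Kif1c lies lower, with no overlap.

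The spindle motors gave no call with S-961 in either parity group in edgeR. In virgin islets their median log2 fold change was -0.09, with 0 of 11 higher at an unadjusted p-value under 0.05, where 23.5% of all genes were, and 0 called higher by DESeq2, where 19.6% were. Kif11 and Kif20a differed by 0.57 ± 1.05 and -0.09 ± 0.82 (adjusted p = 0.703 and 0.947). In multipara islets the median was 1.37, with 2 of 11 higher at an unadjusted p-value under 0.05, where 23.6% of all genes were, and 1 called higher by DESeq2, where 19.2% were. Kif11 and Kif20a differed by 1.67 ± 0.97 and 1.38 ± 0.80 (adjusted p = 0.194 for both). Without multipara S-961 4, 13 members passed as higher, 7 of them spindle motors, where 18% of all genes did. Without that library and multipara untreated 1, 16 members passed as higher, all 11 spindle motors among them, where 9.07% of all genes did, and the spindle median was 3.72. These are the libraries at odds with the other libraries of their group, and leaving them out was chosen after their values were seen. Kif24 rose by 2.07 ± 0.65 in multipara islets (adjusted p = 0.0283), and that call was lost without multipara S-961 1, multipara untreated 1 or multipara untreated 2 (adjusted p = 0.0626, 0.0707 and 0.168) and with only the groups compared in the fit (adjusted p = 0.0549).

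None of the remaining members passed the adjusted threshold in any of the 5 comparisons. Kif12 ran from 171 to 247 CPM over all libraries, Kif1bp from 46.5 to 72.6 CPM and Kif19a, which sets the length of cilia, from 25.2 to 32.1 CPM. Kif2a, a microtubule depolymerase of neurons and spindles, ran from 18.6 to 24.5 CPM. The kinesin-2 motor pair Kif3a and Kif3b, which drives transport in cilia, ran from 14.6 to 20.0 CPM and from 40.5 to 54.8 CPM. Kif13a, an endosome motor, ran from 13.5 to 20.4 CPM, and Kif13b from 48.6 to 84.9 CPM. Kif9 ran from 5.27 to 8.31 CPM, Kif26a from 1.48 to 3.95 CPM, Kif27 from 0.640 to 1.44 CPM, Kif26b from 0.129 to 0.976 CPM and Kif7 from 0.0630 to 0.815 CPM. With S-961 in virgin islets, Kif26a differed by -0.95 ± 0.37 (adjusted p = 0.0695) and Kif7 by 1.24 ± 0.83 on the log2 scale (adjusted p = 0.269).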

How the data were processed

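Bulk RNA-seq of mouse islets gave 11 libraries, grouped by their labels. Libraries were made with the TruSeq Stranded mRNA kit, and the submitters' processing notes name STAR, RSEM and the mouse build GRCm38 (mm10), without versions. The authors deposited estimated counts per gene, 1 table per library, without normalization. In each library, 4449 to 5162 genes had fractional values, which were rounded before testing. RSEM divides reads between similar genes, so that members sharing reads are less certain.

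Comparisons were fitted in R 4.3.3 by edgeR 4.0.16. Genes were kept by filterByExpr, with a minimum count of 10 and a minimum total of 15, and libraries were scaled by TMM. The quasi-likelihood F-test was used with Benjamini-Hochberg adjustment over all genes tested, with a threshold of 0.05. Each parity comparison used only the libraries of its own treatment, and the others used all 11. No list was tested as a set, and list medians and counts are descriptions. CPM and log2 CPM (prior count 2) came from 1 normalization of all libraries. Genes per length used the union of GENCODE M21 exons. Fitted values are given one by one for all tested spindle motors, the 6 most abundant cargo motors and members with an unadjusted p-value under 0.05 in the S-961 parity comparison. Elsewhere they are given for Kif11, Kif20a, Kif5b, the 5 members with the smallest p-value and some members named beside them. Outside the members they are given for at most 3 genes per list by the smallest p-value in the S-961 parity comparison, apart from genes said to be chosen after their values were seen. Members were taken by symbol, but the family, its split by role and the lists were chosen with earlier results of these data known. Alternatives were DESeq2 1.42.0, its size factors, no filter, a replicate block, other libraries in the fit, an acinar covariate and each library left out. The fit was tested on simulated data. Over same-group pairs, libraries differed by more than counting noise (chi-square per gene 8.90 to 116), so that each was counted as 1 sample. This does not show that they came from separate mice. Figures were drawn with matplotlib 3.10.9. Single-cell data of the study were not used here.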

Additional observations from a re-analysis of the deposited data

Results flagged for a closer look

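One result stood apart among the 36 members tested. Kif3c, a kinesin-2 subunit, had 17.8 CPM in multipara S-961 2 and 22.0 to 22.8 CPM in the other 3 multipara S-961 libraries. The gap between this lowest library and its nearest neighbour was 0.839 of the whole range of the group, above Dixon's critical value for 4 samples. Chance alone gives such a gap in about 1 of 20 groups, and Kif3c is a gene whose reads were partly divided with other genes.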

How the results depend on the processing

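For multipara against virgin with S-961, no member passed as reported, 6 passed with DESeq2, 9 with a replicate block and 0 to 11 with single libraries left out, and the spindle median fell to 1.37 with the acinar covariate. Same-numbered virgin and multipara libraries deviated together with correlations of 0.012 to 0.093 with S-961 and 0.28 untreated. These values do not settle whether the numbers pair the samples. The block also takes up multipara S-961 4, the 1 library with that number. For S-961 against untreated in multipara islets, 7 members passed as reported, 12 with the replicate block, 4 with only the groups compared in the fit, 3 to 13 with single libraries left out, and 16 without multipara S-961 4 and multipara untreated 1. In virgin islets, 6 passed as reported, 10 with only the groups compared and 3 to 8 with single libraries left out. The count was 0 to 13 for untreated parity and 0 to 1 for the interaction with single libraries left out.

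Left-out libraries moved the spindle median between 2.77 and 3.76 for parity with S-961, -0.04 and 2.31 for untreated parity, 0.62 and 3.15 for the interaction, and 0.73 and 3.36 for S-961 in multipara islets. Without both doubtful libraries the last 2 were 3.53 and 3.72. The mean spindle share was 0.777% in virgin S-961 and 0.928% in virgin untreated. It was 2.42% and 2.60% with Kif2a in the list, 0.554% and 0.621% without Kif20b and Kif22, and, for virgin untreated, 1.11% by longest transcript and 0.822% without length. The mean log2 difference between spindle and cargo motors in virgin untreated was -6.01 as reported. It was -6.17 with a prior count of 0.5, -6.19 by medians, -5.61 with Kif2a and -6.22 without Kif20b and Kif22.

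Directions also turned. With single libraries left out, the log2 fold change for parity with S-961 ran from -0.167 to 0.0282 for Kif5b, -0.27 to 0.13 for Kif1a, -0.11 to 0.18 for Kif1b and -0.195 to 0.0784 for Kif13b, and Kif1b was at -0.067 with the acinar covariate. For untreated parity it ran from -0.0413 to 2.84 for Kif11 and -0.88 to 1.63 for Kif20a. For the interaction it ran from -0.10 to 0.24 for Kif5b and -2.34 to 1.07 for Kif21b, with -0.12 and 1.08 without both doubtful libraries. Kif20a with S-961 in virgin islets ran from -0.25 to 0.10 and was 0.16 with the replicate block. The causes were not tested. Kif5b, Kif16b, Kif1c in virgin islets and Kif21a in multipara islets kept their S-961 calls in all alternatives run. With 2 untreated libraries a group and counts of 5 or fewer for several spindle motors, small differences were not detectable.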

Other observations

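The proteins that tie cargo to kinesins, and the dynein motor that carries it back, were described from lists of 19 adaptors and 25 subunits of dynein, dynactin and their activators. With S-961 in virgin islets, 4 adaptors rose and 2 fell, where 18.8% of all genes rose and 17.6% fell, and in multipara islets 6 rose and 1 fell, where 18.2% and 19.4% of all genes did. Mapk8ip3, which links kinesin-1 to vesicles, was chosen after its values were seen. It had 145 to 190 CPM in the 7 S-961 libraries and 69.0 to 82.6 CPM in the 4 untreated ones, and rose by 1.27 ± 0.14 in virgin (adjusted p = 0.000224) and by 1.03 ± 0.14 on the log2 scale in multipara islets (adjusted p = 0.000399). Klc2, a kinesin-1 light chain, rose by 0.41 ± 0.14 in virgin islets (adjusted p = 0.0377) and differed by 0.23 ± 0.13 in multipara islets (adjusted p = 0.186). The lysosome adaptor Arl8b and the vesicle adaptor Madd did not pass the test in either parity group.

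Among dynein and dynactin genes, 3 rose and 7 fell in virgin islets with S-961, and 4 rose and 7 fell in multipara islets, beside the same shares of all genes. The light chain Dynll2 had 213 to 295 CPM with S-961 and 684 to 830 CPM without. It fell by 1.45 ± 0.16 in virgin (adjusted p = 0.000184) and by 1.73 ± 0.14 on the log2 scale in multipara islets (adjusted p = 7.88e-05). Dync1li1, a light intermediate chain, rose by 0.70 ± 0.15 in virgin islets (adjusted p = 0.00459), and Dync1i1, an intermediate chain, rose by 0.83 ± 0.22 in multipara islets (adjusted p = 0.0151). Between multipara and virgin with S-961, the median log2 fold change was -0.02 for the adaptors and -0.05 for the dynein list, with 0 genes of either past the adjusted threshold and 1 lower in each at an unadjusted p-value under 0.05. Outside the Kif symbols, the C-terminal motor Kifc2, also chosen after its values were seen, had 24.9 to 28.2 CPM in the S-961 libraries and 7.77 to 14.8 CPM in the untreated ones. It rose by 1.47 ± 0.16 in virgin (adjusted p = 0.000204) and by 0.83 ± 0.15 in multipara islets (adjusted p = 0.00209).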
